A study of Mus musculus with 12 samples.

Results

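Of 31791 gene names on the array, 65 named genes were late-only responders to lipopolysaccharide (LPS) in wildtype mouse macrophages: flat at 3 h and brighter by at least 2 on the log2 scale at 24 h. Members were chosen on the wildtype arrays alone. The mean log2 level after 24 h had to exceed the untreated mean by at least 2, the mean at 3 h had to lie within 0.5 of the untreated mean, and the probe had to be well above background on both wildtype 24 h arrays. In all, 100 names met these limits, and 35 were left out because they are predicted genes (8 Gm and 5 LOC names), RIKEN names (10) or clone and transcript identifiers (12). A level here is the log2 of the background-corrected brightness of a probe minus the 75th percentile of its array, so that 0 is the brightness of the probe at that percentile. The brightest probe, by its mean level over all 12 arrays of both genotypes, stands for a gene. All wildtype changes given below are therefore descriptions of how the genes were picked. Tests were made only between knockout groups, whose changes the limits did not use. Knockout levels entered the choice only through the pick of the brightest probe for genes with several probes.

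Marrow cells from 4 mice, 2 of them wildtype and 2 labelled Commd1 knockout, were cultured into macrophages over 10 days in GM-CSF at 20 ng/mL, a growth factor that also yields dendritic-like cells. The knockout is labelled only as Commd1 knockout, and the labels name no strain, age, promoter or Cre driver. Each mouse gave 1 culture without LPS and 1 each with LPS at 10 ng/mL for 3 h and for 24 h, which makes 6 groups of 2 samples on 12 single-colour arrays. The question was how loss of COMMD1, a subunit of an endosomal sorting complex that also restrains NF-kB, alters the LPS response.

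As background, LPS is sensed by the receptor TLR4, which within minutes activates NF-kB and interferon regulatory factors that are already present in the cell. Their first targets include the cytokine genes, among them interferon beta, which is secreted and acts back on the macrophages through JAK kinases and STAT transcription factors. Genes that need newly made proteins, secreted signals or opened chromatin rise in later waves. Late genes of macrophages are known for receptors, antigen presentation, guanylate-binding proteins and enzymes that take LPS apart.

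Commd1 itself was low in every knockout sample: its log2 level lay between 2.70 and 2.89 in the 6 wildtype samples and between -0.50 and 0.07 in the 6 knockout samples, with no overlap. Between 59.6% and 72.9% of probes per array were well above background, with the lowest share on replicate 1 of the knockout 24 h group, which also had the most outlier spots (589 against 132 to 214 elsewhere). All arrays of a time lay on the same slide, and the effects of LPS time and of slide cannot be told apart. The slope of the spike-in controls was 0.735 to 0.799 on the untreated and 3 h slides and 0.820 to 0.869 on the 24 h slide. On every slide it was higher in the knockout arrays, which also held other positions than the wildtype arrays. Untreated, it was 0.743 and 0.735 in wildtype against 0.794 and 0.797 in knockout. At 3 h it was 0.743 and 0.743 against 0.798 and 0.799, and at 24 h 0.824 and 0.820 against 0.869 and 0.842. Its part in the late changes and in differences between genotypes was not tested. All 10 measured macrophage markers were above background on both arrays of every group. In these bulk samples, more cells of a type and more RNA per cell cannot be told apart.

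Among the 65 genes, 9 stand apart by their probes. Nhlh1, Hoxd13, Armcx3, Cbx6-Nptxr, Cd300a, Elavl4, Fryl, Mef2a and Hdac7 were each read by a probe that holds a run of at least 7 alternating G and T bases. This group was noticed after the values were seen. To show what these otherwise unrelated genes have in common, 30 bases of the 60-base probe follow for 8 of the 9 genes as the deposited files list them, with the longest run in capitals.
Hoxd13: tatttttgtagatacaGTGTGTGTGagcag
Armcx3: gattacatatTGTGTGTGTGagtgtgtgtg
Cbx6-Nptxr: tgtgtgagtgcGTGTGTGatctgtgccatg
Cd300a: agatgggtgtaTGTGTGTatgtgtgtatgt
Elavl4: tccttctgtTGTGTGTGTGTatgtgtacat
Fryl: ttaTGTGTGTGTGagttggagtgtgtgtgt
Mef2a: gttggtgtgaGTGTGTGTGTatgtgtgggt
Hdac7: tttgtgtgtaTGTGTGTGTatgagtgcgtg

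The 9 probes had nearly the same profile. Over the 12 arrays their pairwise correlations ran from 0.98 to 1.00 (36 pairs; the arrays are shared, so this is a description). The genes without a run, picked for the same course, had a median of 0.92 and a range of 0.09 to 1.00 over 1485 pairs of 55 genes. Mef2a, a transcription factor, can stand for them: its log2 level was 4.03 and 3.80 in untreated wildtype, 4.26 and 4.32 after 3 h and 6.05 and 5.93 after 24 h. In the knockout it was 6.35 and 5.41 untreated, 6.22 and 4.90 after 3 h and 6.84 and 6.58 after 24 h. Both untreated knockout samples thus lay above untreated wildtype, replicate 1 also above the wildtype 24 h pair, and replicate 1 of the knockout lay above replicate 2 at every time. Another probe of the same gene did not repeat the wildtype change: at 24 h it was 0.10 for Nhlh1, 0.62 for Armcx3, -0.74 for Cbx6-Nptxr and -0.52 for Mef2a, all 4 probes being above background on both 24 h arrays. Array-wide, 496 further probes with such a run and signal on all 12 arrays had a median wildtype 24 h change of 0.39, and 6.85% of them reached 2, against a median of -0.01 and 2.79% for 21432 probes without a run. The median change was 1.01 in 56 probes with 5 or 6 TGTG words and 1.28 in 105 probes with 7 to 19, against -0.01 in 14944 probes with none. It was -0.02 in 6669 probes with 1 or 2 words and -0.01 in 411 probes with 3 or 4. The Hoxd13 probe, with 3 words, belongs by its count to the last of these. What these probes read was not tested, and the main counts below are given with and without the 9 genes.

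In wildtype cells the 24 h change of the 65 genes ranged from 2.01 to 5.40 with a median of 2.46. The 3 h change ranged from -0.44 to 0.49 with a median of 0.15. Just inside the 24 h limit were C2 at 2.01, Fxyd1 at 2.02 and Hdac7 at 2.02, and just outside it Mrgprb1 at 1.98, Odz4 at 1.97 and Dnahc2 at 1.97. At 3 h the upper limit divided Trem3 (0.49), Ms4a8a (0.46) and Stk39 (0.44) from Hivep3 (0.51), Pla2r1 (0.54) and Rdh1 (0.54). The lower limit divided Ptprm (-0.44), Ms4a1 (-0.42) and Dnase1l3 (-0.40) from Clec4a3 (-0.52), Ms4a4a (-0.54) and Spic (-0.56). Genes on either side of a limit thus differed by less than the spread between mice, which for the 24 h change had a median of 0.23 in wildtype and 0.37 in knockout.

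Flat at 3 h did not mean the same for every gene. Signal was well above background on both untreated and both 3 h wildtype arrays for 52 genes. Gpr55, Rtn4r, Upk3b, Coch, Ccdc146, Art2a-ps and Ptprm were above background on none of these 4 arrays, so that a small change at 3 h could not have been measured in these 7. Their 24 h fold is given as a lower bound, the 24 h mean against the lowest signal detected on the untreated arrays: at least 8.01-fold for Gpr55, 7.86-fold for Rtn4r, 4.24-fold for Ccdc146, 3.69-fold for Ptprm, 3.67-fold for Upk3b, 2.83-fold for Art2a-ps and 1.87-fold for Coch.

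The mean of 2 mice also hid unlike mice. In both wildtype mice the 24 h change reached 2 for 50 of the 65 genes, and the 3 h change lay within 0.5 for 45. Ccdc146, for example, had 3 h changes of 1.12 and -0.85, and Enpp6 of 0.98 and -0.68, both near background. Gp1bb, the beta chain of the platelet receptor for von Willebrand factor, had log2 levels of -4.99 and -5.06 untreated, -4.88 and -4.76 after 3 h, and 0.16 and -4.41 after 24 h in wildtype. Only replicate 1 at 24 h was high, and the 6 knockout samples lay between -4.79 and -4.15. Vnn1, a pantetheinase, was at -6.31 and -3.94 in wildtype at 24 h against -7.07 and -7.40 untreated, and in the knockout replicate 1 was higher untreated (-4.26) than after 24 h (-6.22). Sectm1a was at -4.69 and -6.78 in untreated wildtype, and its 24 h change was 1.11 in mouse 1 and 3.02 in mouse 2. In these 3 genes the mean change of at least 2 was met by 1 of the 2 wildtype mice.

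**Figure D1:**
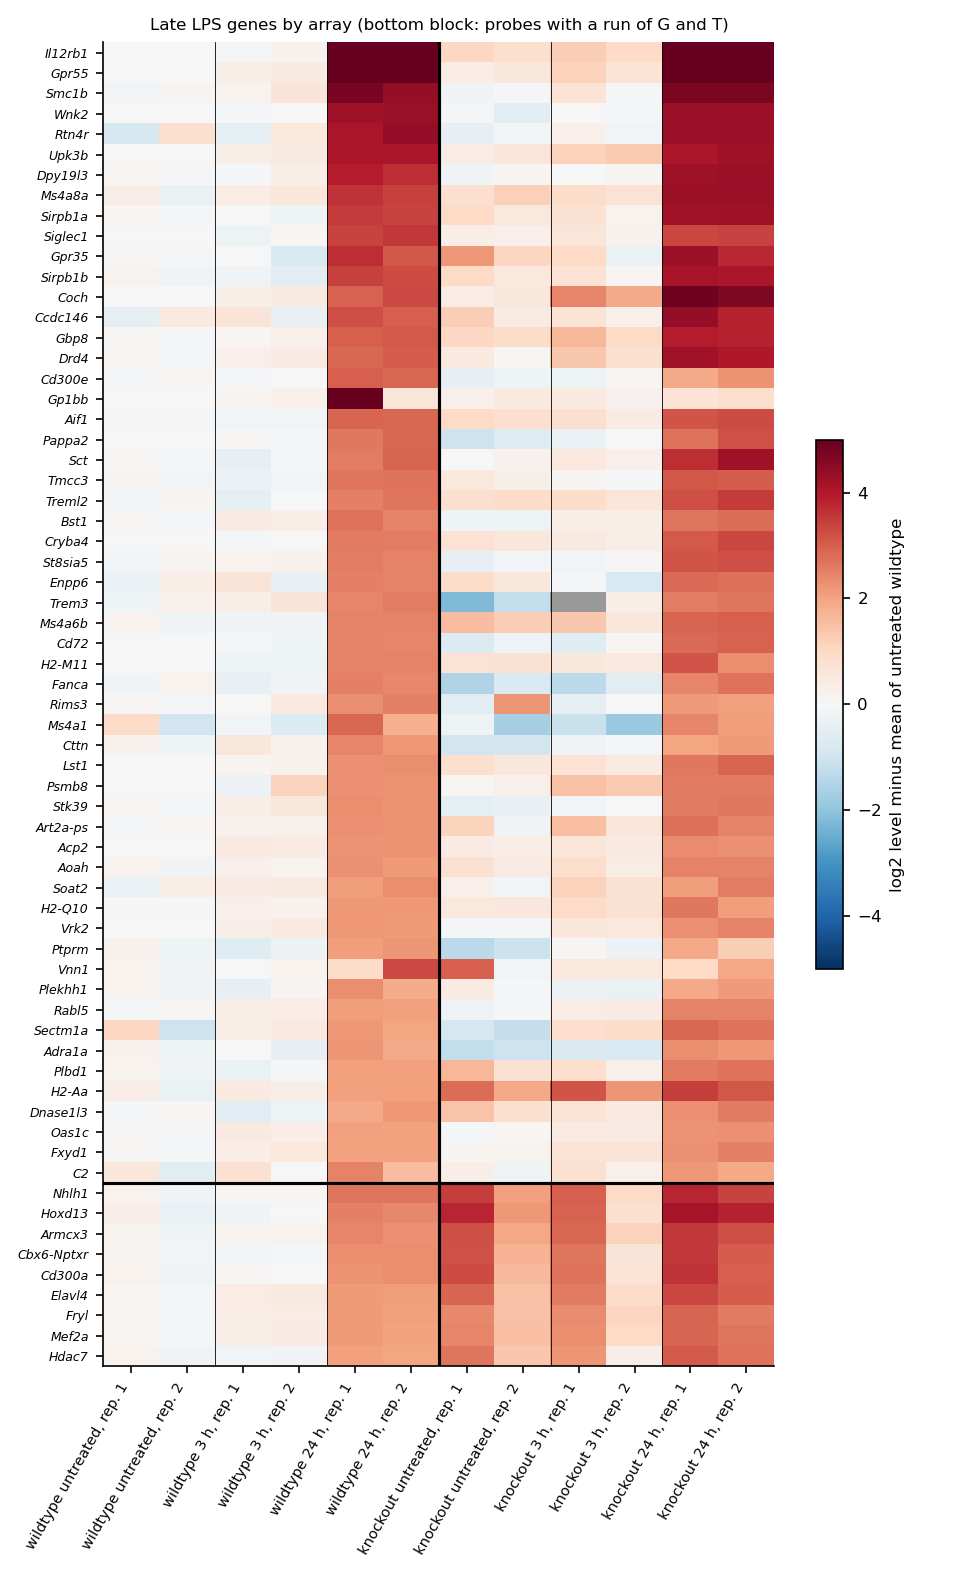
Log2 level of the 65 late genes (rows) on the 12 arrays (columns), shown as the difference from the mean of untreated wildtype, with colours clipped at -5 and 5 and a missing spot in grey. The 56 genes above the thick line turn red in the 24 h columns of both genotypes with few exceptions, while the 9 genes below it, read by probes with a run of G and T, are already red in untreated knockout samples.

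The knockout course was tested with limma over 23019 genes. All 12 arrays were in the fit, so that the wildtype arrays, which chose the genes, gave part of the estimated spread. A fit on the knockout groups alone also called 52 of the 65 genes higher at 24 h, and 4856 of all 23019 genes. After 24 h, 52 of the 65 genes were higher than untreated (Benjamini-Hochberg adjusted p below 0.05), none was lower and 13 did not pass, while 26.0% of all genes tested were higher and 31.5% lower. None of the 9 genes with a G and T run passed, so that without them 52 of 56 were higher. The median knockout change was 2.46 over the 65 genes and 2.70 over the 56, against -0.07 over all genes tested. With normexp background correction it was 1.95 over the 65 genes, against 0.22 over all genes tested. The fitted 24 h change was at least 2 in 43 of the 65 genes, a size that 3.49% of all genes tested reached. With lower bounds in place of fitted values for genes below background the number is 39, since Upk3b, Coch and Art2a-ps have bounds under 2 on the log2 scale and Ptprm was above background in neither group. The median is then 2.34 over 64 genes. In both knockout mice the change was above 0 for 63 of the 65 genes, a count given without a share over all genes tested. The exceptions were Vnn1 (-1.96 in 1 mouse) and Rims3, a presynaptic scaffold protein (-0.16).

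The 4 genes without a G and T run that did not pass were Gp1bb (0.41 ± 1.13, SE, adjusted p = 0.778), Vnn1 (0.05 ± 1.00, adjusted p = 0.971), Rims3 (1.26 ± 0.71, adjusted p = 0.163) and H2-Aa (0.94 ± 0.38, adjusted p = 0.0633). For Rims3 the untreated knockout samples were at -6.63 and -3.86, and without knockout replicate 2 the change was 2.68, with 1 array left in each knockout group. Knockout replicate 2 was thus the high untreated sample of this gene. With the mouse as a block, 57 of the 65 genes were higher, against 6137 of all 23019 genes tested. H2-Aa (adjusted p = 0.00769), Fryl (0.0178), Mef2a (0.0212), Elavl4 (0.0262) and Cd300a (0.0438) passed in addition. Knockout replicate 1 held the higher untreated sample for the 9 genes with a G and T run. Without it, the 24 h change of these 9 was 1.13 to 1.69, and that of H2-Aa was 1.19. A fit without a knockout replicate leaves 1 array in each knockout group, which is assumed to vary like the wildtype arrays that chose the genes, and this holds for every such value given here.

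**Figure D2:**
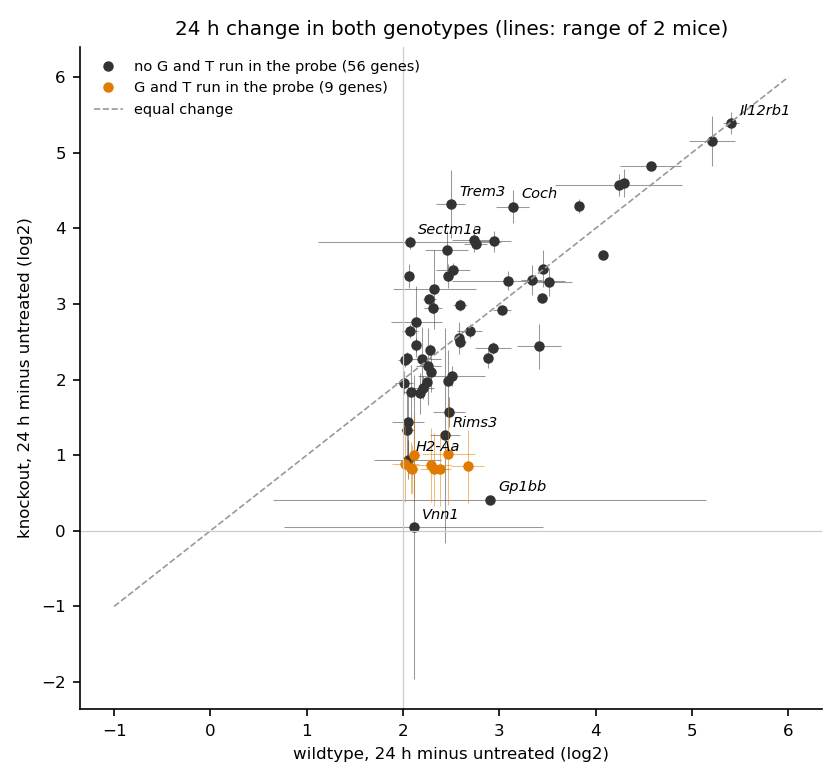
Change from untreated to 24 h (log2) in knockout (vertical axis) against wildtype (horizontal axis), 1 point per gene, with lines from the lower to the higher of the 2 mice of each genotype. Genes without a G and T run in the probe (dark) mostly lie near the dashed line of equal change up to Il12rb1 at 5.40 and 5.39, the 9 genes with a run (orange) lie at 0.81 to 1.01 in the knockout, and long lines mark Gp1bb and Vnn1.

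The greatest wildtype change belonged to Il12rb1, the receptor chain shared by the IL-12 and IL-23 receptors (probe at chr8:73345261-73345320, mm9). Its log2 level was -1.99 and -2.03 in untreated wildtype, -2.07 and -1.80 after 3 h, and 3.33 and 3.46 after 24 h. The knockout samples were at -0.98 and -1.21, then -0.80 and -1.03, and then 4.27 and 4.33. Only the 24 h samples were high, they overlapped no earlier sample, and the knockout lay above the wildtype at each time. In the knockout the 24 h change was 5.39 ± 0.13 (42.0-fold, adjusted p = 4.68e-08), and that at 3 h was 0.18 ± 0.13 (adjusted p = 0.275).

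The partners of Il12rb1 did not follow a common course. Il23r, which pairs with it in the IL-23 receptor, was not well above background on the 4 untreated arrays and above it on 1 of 4 arrays at 3 h. At 24 h it was at -0.003 and -0.05 in wildtype and 0.14 and 0.33 in knockout. Il12rb2, the other chain of the IL-12 receptor, was lower in the knockout at 24 h (-0.64 ± 0.12, adjusted p = 0.00167). The ligand gene Il12b had its peak at 3 h, at 1.11 and 1.02 in wildtype samples against 0.97 and 0.87 in knockout samples, and was above background on 1 of the 4 arrays at 24 h. Receptor and ligand transcripts of this cytokine pair were therefore high at different times. Of the 14 tested genes of the IL-12 and IL-18 axis, 10 were higher in the knockout at 3 h, against 26.4% of all genes tested. At 24 h, 10 were higher, against 26.0%.

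Receptors were the largest named class. Of these 15 genes, 14 were higher in the knockout at 24 h, against 52 of all 65 late genes, and the exception was Cd300a with its G and T run. Siglec1, the sialic acid-binding adhesion receptor CD169 and a marker of interferon-exposed macrophages, was at -1.21 and -1.15 untreated, -1.44 and -1.06 after 3 h and 2.19 and 2.34 after 24 h in wildtype. The knockout was at -0.86 and -0.92, -0.59 and -0.96, and 2.18 and 2.20. The 24 h samples stood clear of all earlier ones and the genotypes overlapped there. The knockout change was 3.08 ± 0.15 (adjusted p = 1.21e-06).

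Sirpb1a and Sirpb1b, activating members of the signal regulatory protein family, are neighbours on chromosome 3 whose probes lie 117 kb apart. Sirpb1a was at 0.47 and 0.24 untreated and 3.87 and 3.74 after 24 h in wildtype, and Sirpb1b at 0.87 and 0.48 and then 4.10 and 3.92. In the knockout they rose by 3.46 ± 0.22 and 3.32 ± 0.24 (adjusted p = 4.14e-06 and 9.60e-06), and all 4 knockout 24 h values (4.57 and 4.60, 4.80 and 4.71) lay above the wildtype ones. The genes are close relatives, and whether each probe reads its own gene alone was not tested.

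Cd72, an inhibitory receptor known from B cells, was at 3.54 and 3.47 in untreated wildtype and 6.003 and 5.95 at 24 h, and at 2.83 and 3.24 and then 6.35 and 6.45 in the knockout. It lay below the wildtype before LPS and above it at 24 h, with a knockout rise of 3.37 ± 0.22 (adjusted p = 5.45e-06). Cd300e, an activating receptor of monocytes, was below the wildtype at 24 h, with -0.18 and 0.17 against 0.91 and 0.77, and its knockout rise was 2.41 ± 0.16 (adjusted p = 5.15e-06). Treml2 and Trem3, of the TREM receptor family, lie 53.8 kb apart on chromosome 17. Treml2 rose by 2.50 ± 0.18 in the knockout and did not pass at 3 h (-0.09 ± 0.18, adjusted p = 0.703).

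Trem3 had another course in the knockout. Its wildtype levels were -6.41 and -5.97, then -5.85 and -5.56, and then -3.77 and -3.63. Untreated knockout samples, at -8.41 and -7.41, were not well above background, the 3 h sample of replicate 2 was at -5.87, the 3 h spot of replicate 1 was an outlier and left out, and the 24 h samples were at -3.64 and -3.53. The knockout thus began lower and reached the wildtype level. Its rise was at least 9.82-fold at 24 h (adjusted p = 2.10e-05), and it is counted as higher at 3 h on a single array, whose spread is taken from the other groups. The step from 3 h to 24 h was 2.28 ± 0.38 (adjusted p = 0.00145), but -0.34 in the deposited value table, which keeps the outlier spot.

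Among receptors coupled to G proteins, Gpr55, a receptor for lysophospholipids, was above background on the 24 h arrays alone, at -4.68 and -4.21 in wildtype and -3.81 and -4.25 in knockout. The knockout rise was at least 7.24-fold (adjusted p = 4.67e-07). Gpr35 was at -6.35 and -6.47 untreated and -2.71 and -3.29 at 24 h in wildtype. In the knockout it was at -4.24 and -5.35, then -5.41 and -6.72, and then -2.10 and -2.62. Untreated knockout samples were above the wildtype, and the change was 2.44 ± 0.51 at 24 h (adjusted p = 0.00362) and -1.27 ± 0.51 at 3 h, which did not pass (adjusted p = 0.0674). With the mouse as a block the 3 h change passed (adjusted p = 0.00355).

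Drd4, the dopamine D4 receptor, and Sct, the hormone secretin, lie 16.4 kb apart on chromosome 7. Drd4 was at -6.42 and -6.62 untreated and -3.65 and -3.51 after 24 h in wildtype, and at -6.03 and -6.47 and then -2.34 and -2.50 in the knockout. Sct was at -5.47 and -5.58 and then -2.96 and -2.62 in wildtype, and at -5.52 and -5.31 and then -1.83 and -1.30 in the knockout. Both genes overlapped between genotypes before LPS, and both were higher in the knockout at 24 h without overlap. The knockout changes were 3.83 ± 0.21 for Drd4 and 3.85 ± 0.20 for Sct (adjusted p = 1.81e-06 and 1.74e-06), and Drd4 had also risen at 3 h (0.79 ± 0.21, adjusted p = 0.0113).

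Adra1a, the alpha-1A adrenergic receptor, was below the wildtype in untreated knockout samples (-4.86 and -4.70 against -3.45 and -3.85) and overlapped it at 24 h (-1.34 and -1.49 against -1.44 and -1.74). It rose by 3.37 ± 0.18 in the knockout (adjusted p = 1.73e-06). Rtn4r, the Nogo receptor, was at -4.61 and -4.33 in wildtype and -4.40 and -4.42 in knockout at 24 h, with no other array above background in its untreated and 3 h groups. Its knockout rise was at least 5.54-fold (adjusted p = 8.50e-05). Ptprm, a receptor phosphatase, was above background on neither knockout 24 h array, so its passing test compares signals that were not measured above background.

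**Figure D3:**
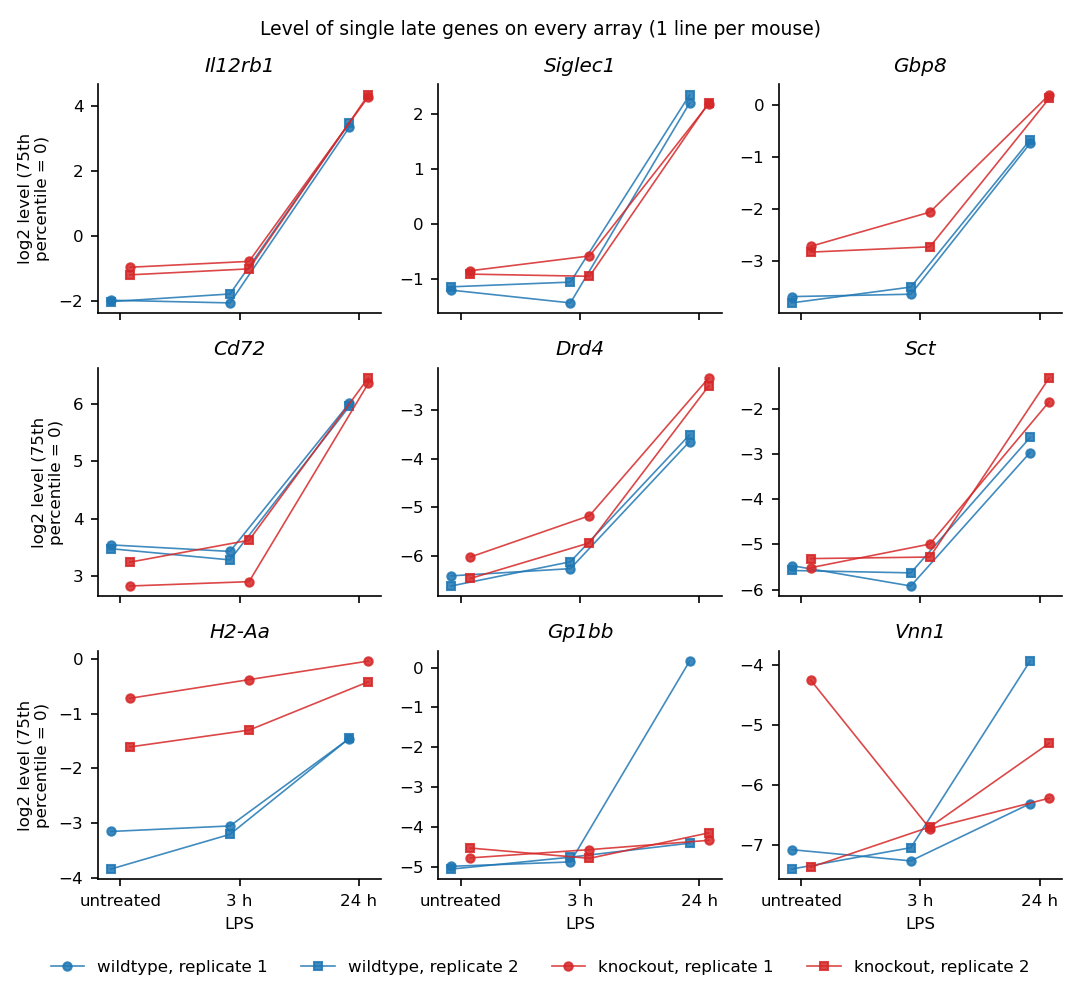
Log2 level of 9 late genes (vertical axis, own scale per panel) against time in LPS (untreated, 3 h, 24 h), 1 line per mouse, wildtype in blue and knockout in red. Il12rb1, Siglec1, Gbp8, Cd72, Drd4 and Sct are highest at 24 h in all 4 mice, Drd4 is already higher at 3 h in both knockout mice (0.85 and 0.73), H2-Aa starts higher in the knockout, and the high wildtype value of Gp1bb and Vnn1 at 24 h is a single mouse.

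Of the 4 genes for secreted proteins, all 4 were higher in the knockout at 24 h: Sct, Pappa2, Sectm1a and C2. Pappa2, a protease that frees insulin-like growth factors from their binding protein, was at -6.27 and -6.32 in untreated wildtype and -3.64 and -3.44 at 24 h. The untreated knockout samples were not well above background, and the rise to -3.60 and -3.11 was at least 11.6-fold (adjusted p = 1.55e-06). Sectm1a, a ligand of T and NK cells, rose by 3.81 ± 0.53 in the knockout (adjusted p = 0.000385) and passed at 3 h as well (1.89 ± 0.53, adjusted p = 0.0169). C2, a complement component, was at -1.85 and -2.98 and then 0.07 and -0.87 in wildtype, and its knockout change of 1.96 ± 0.46 (adjusted p = 0.00643) did not pass without knockout replicate 1 (2.11, adjusted p = 0.0708) or without knockout replicate 2 (1.81, adjusted p = 0.0999).

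Enzymes made up 12 of the genes, and 11 of them were higher in the knockout at 24 h, against 52 of all 65 late genes, the exception being Vnn1. Dpy19l3, which attaches mannose to tryptophan residues, rose from -5.66 and -5.37 to -1.27 and -1.16 in the knockout (4.30 ± 0.17, adjusted p = 3.74e-07), and the wildtype went from -5.38 and -5.61 to -1.56 and -1.79. St8sia5, a sialyltransferase of gangliosides, rose by 3.45 ± 0.13 in the knockout, and Bst1 (CD157), an enzyme that makes cyclic ADP-ribose, by 2.98 ± 0.10 (adjusted p = 3.02e-07 and 1.49e-07). Bst1 had also risen at 3 h in the knockout (0.55 ± 0.10, adjusted p = 0.00166).

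Aoah, acyloxyacyl hydrolase, removes fatty acid chains from LPS and so inactivates it. It was at 2.12 and 1.77 untreated, 2.20 and 2.10 at 3 h and 4.21 and 4.08 at 24 h in wildtype, and at 2.69 and 2.36, 2.84 and 2.33, and 4.42 and 4.41 in the knockout. The 24 h samples of both genotypes stood clear of all earlier ones, with a knockout rise of 1.89 ± 0.19 (adjusted p = 5.71e-05). A second probe of Aoah, dimmer but above background on all 12 arrays, was already higher by 1.82 at 3 h and by 4.01 at 24 h in wildtype, so that its late-only course belongs to 1 of its 2 probes.

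The other enzymes that rose in the knockout at 24 h were Acp2, a lysosomal acid phosphatase (1.97 ± 0.08), Soat2, which esterifies cholesterol (2.28 ± 0.25), Psmb8, Enpp6, a choline-releasing phosphodiesterase (2.05 ± 0.36), Plbd1 (1.43 ± 0.30), the secreted nuclease Dnase1l3 (1.33 ± 0.22) and the ADP-ribosyltransferase gene Art2a-ps (at least 2.47-fold). Psmb8, a catalytic subunit of the immunoproteasome, had wildtype levels of 3.19 and 3.21 untreated, 2.90 and 4.31 at 3 h, and 5.50 and 5.45 at 24 h. Its flat mean at 3 h averages unlike mice, and the knockout was at 4.65 and 4.51 at 3 h. Psmb8 rose in the knockout both at 3 h (1.19 ± 0.36, adjusted p = 0.0225) and at 24 h (2.39 ± 0.36, adjusted p = 0.000581). Under quantile normalization its 3 h change was 0.84 and did not pass (adjusted p = 0.0749).

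Of the 8 genes for transcription and signalling, 5 belong to the G and T run group, and the remaining 3 were higher in the knockout at 24 h. Wnk2 and Stk39 stand in the same kinase cascade, in which WNK kinases phosphorylate STK39 (SPAK), a regulator of ion transporters. Wnk2 was at -4.67 and -4.63 untreated, -4.69 and -4.61 at 3 h, and -0.40 and -0.31 at 24 h in wildtype. The knockout was at -4.76 and -5.16, -4.64 and -4.76, and -0.34 and -0.37, so that the 24 h values of the genotypes overlapped, and rose by 4.61 ± 0.13 (adjusted p = 7.15e-08). Stk39 rose by 3.06 ± 0.11 and Vrk2, another kinase, by 2.46 ± 0.09 (adjusted p = 2.40e-07 and 2.71e-07). Both also passed at 3 h in the knockout, with 0.37 ± 0.11 and 0.61 ± 0.09. The 3 h call of Stk39 was lost under quantile normalization (adjusted p = 0.126) and with only the knockout groups in the fit (adjusted p = 0.0566).

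Fxyd1, a regulator of the sodium pump, rose by 2.25 ± 0.11 in the knockout (adjusted p = 1.00e-06). Of the adhesion and matrix genes, Upk3b, Coch and Cttn were higher and Gp1bb did not pass. Coch, a matrix protein best known from the inner ear, was at -6.72 and -6.37 in wildtype and -4.81 and -5.03 in knockout at 24 h, and its knockout rise was at least 3.90-fold. Cttn (cortactin), which binds actin at the cell edge, went from 0.85 and 0.42 to 3.06 and 2.82 in wildtype, and from -0.27 in both untreated knockout samples to 2.59 and 2.75. The knockout lay below the wildtype at all 3 times, and rose by 2.94 ± 0.17 (adjusted p = 3.02e-06).

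Gbp8, a guanylate-binding protein, was the only late-only gene of its family. It was at -3.68 and -3.80 untreated, -3.63 and -3.50 at 3 h and -0.74 and -0.68 at 24 h in wildtype, and at -2.72 and -2.83, -2.06 and -2.73, and 0.19 and 0.12 in the knockout. The knockout lay above the wildtype at each time without overlap, and rose by 2.92 ± 0.19 at 24 h (adjusted p = 4.66e-06) but did not pass at 3 h (0.38 ± 0.19, adjusted p = 0.124). Other tested genes of the interferon gamma axis and GTPase list were higher in the knockout at 3 h in 23 of 24 cases. Their median change was 3.51, and 26.4% of all genes tested were higher. Oas1c, of the oligoadenylate synthetase family, rose by 2.29 ± 0.09 at 24 h and 0.42 ± 0.09 at 3 h in the knockout (adjusted p = 4.40e-07 and 0.00526). All 31 measured antiviral interferon-stimulated genes of a list were higher in the knockout at 3 h and at 24 h, against 26.4% and 26.0% of all genes tested. None of the 31 was late-only, which is near the share over all genes, 65 of 23022 gene names tested. Oas1c, itself late-only, is not on that list.

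Late-only were 1 of 17 tested genes for MHC class II and costimulation and 2 of 22 for MHC class I and the immunoproteasome. Of all 23022 gene names tested, 65 were, and these shares were not compared by a test. H2-Aa, the alpha chain of an MHC class II molecule, was at -3.16 and -3.85 untreated, -3.05 and -3.21 at 3 h and -1.45 and -1.45 at 24 h in wildtype. In the knockout it was at -0.72 and -1.61, -0.37 and -1.30, and -0.03 and -0.41. The 6 knockout values thus lay above the wildtype values of the same time without overlap, and untreated replicate 1 of the knockout lay above the wildtype 24 h pair. Of the 17 tested genes for MHC class II and costimulation, 9 were higher and 3 lower in the knockout at 24 h, against 26.0% and 31.5% of all genes tested. Its partner chain H2-Ab1 changed by 1.01 ± 0.41 (adjusted p = 0.0653) and the invariant chain Cd74 by 0.80 ± 0.30 (adjusted p = 0.0480).

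All 22 tested genes for MHC class I and the immunoproteasome were higher in the knockout at 24 h, H2-Q10 and Psmb8 among them. At 3 h, 17 were higher. Of all genes tested, 26.0% were higher at 24 h and 26.4% at 3 h. H2-Q10 went from 2.64 and 2.53 to 4.76 and 4.75 in wildtype and rose by 1.82 ± 0.16 in the knockout (adjusted p = 2.46e-05). Its second probe, above background on all 12 arrays, had a wildtype 24 h change of -0.14. Class I genes are close copies of each other, so which of them the H2-Q10 and H2-M11 probes read is uncertain.

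The Ms4a family, membrane proteins with 4 passes best known for CD20, gave Ms4a8a, Ms4a6b and Ms4a1. Ms4a8a was at -6.60 and -7.29, then -6.58 and -6.39, and then -3.33 and -3.53 in wildtype, and rose by 3.29 ± 0.22 in the knockout (adjusted p = 6.45e-06). Ms4a6b rose by 1.57 ± 0.23 (adjusted p = 0.000545). Ms4a1 (CD20), the B cell marker, was at -4.06 and -5.12 in wildtype and -4.49 and -4.84 in knockout at 24 h, with a knockout rise of at least 4.65-fold (adjusted p = 0.00430) that did not pass without knockout replicate 2 (0.0822). The summed level of the 7 B cell markers was 0.25 to 0.35 untreated and 0.19 to 0.21 at 24 h in wildtype, and 1.02 to 1.07 and 0.49 to 0.50 in the knockout. That of the 4 plasmacytoid dendritic cell markers was 6.19 to 6.38 untreated and 8.09 to 8.33 at 24 h over both genotypes, and 1 of the 4 passed in the knockout at 24 h. The median 24 h change of these 4 was 0.14 in knockout and 0.297 in wildtype, so the rise of their sum was not shared by all 4. Of the 7 tested dendritic cell markers, 3 were higher and 1 lower in the knockout at 24 h, with a median change of 0.05. Of all genes tested, 26.0% were higher and 31.5% lower. The part of other cells in the late genes was not tested.

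The remaining genes have roles elsewhere in the body or none assigned here. Smc1b, a cohesin subunit known from meiosis, went from -6.77 and -6.52 to -1.88 and -2.27 in wildtype and rose by 4.82 ± 0.25 in the knockout (adjusted p = 1.65e-06). The size of such rises of dim genes depends on the background correction: with normexp it was 2.94 for Smc1b, 2.42 for Drd4, 2.14 for St8sia5 and 2.08 for Ms4a8a, and in all 18 of the 52 risen genes were over 1.5 times larger without it. Fanca, a DNA repair protein, was lower in untreated knockout samples (-1.22 and -0.44 against 0.13 and 0.47), overlapped the wildtype at 24 h and rose by 3.71 ± 0.30 (adjusted p = 1.73e-05). Aif1 (IBA1), an actin-binding protein of macrophages and microglia, went from 3.88 and 3.75 to 6.71 and 6.67 in wildtype and rose by 2.28 ± 0.14 in the knockout. Its neighbour Lst1 rose by 2.10 ± 0.14. Rabl5 (now Ift22), a small GTPase of cilia, rose by 2.64 ± 0.09, and Tmcc3, Cryba4 (a lens crystallin), H2-M11, Plekhh1 and Ccdc146 also passed, with changes of 1.84 to 2.64 or, for Ccdc146, at least 5.91-fold. Genes named here outside the naming rule (18 of the 65) were added after their values were seen, so that every gene is accounted for.

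At 3 h, where the wildtype means were flat by choice, 16 of the 65 genes were higher than untreated in the knockout (26.4% of all genes tested) and 2 were lower (25.7% of all genes tested). The share of higher calls among the 65 genes was thus near that of all genes. The 16 were Upk3b, Coch, Drd4, Pappa2, Bst1, Trem3, Cttn, Psmb8, Stk39, Soat2, Vrk2, Ptprm, Rabl5, Sectm1a, Oas1c and Fxyd1. Upk3b, Coch and Ptprm were above background in neither group, which leaves no measured size. Of the 16 calls, those of Upk3b, Pappa2, Psmb8 and Stk39 were lost under quantile normalization. That of Stk39 was also lost with the percentile over detected probes, and those of Stk39 and Pappa2 with only the knockout groups. The calls of Coch and Ptprm were lost in the deposited value table. Tmcc3 (-0.36 ± 0.12, adjusted p = 0.0370) and Enpp6 (adjusted p = 0.0231) were lower. Enpp6 was above background on neither 3 h array and on 1 of the 2 untreated ones, which leaves no measured size, and neither call held without knockout replicate 1 or without knockout replicate 2. Without knockout replicate 1, 11 of the genes were lower at 3 h, and without replicate 2, 3 were. In size, 37 genes stayed within 0.5 in the knockout as against 53.2% of all genes tested, 15 were above and 13 below. Of the 13 below, 6 had a G and T run in the probe.

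Between 3 h and 24 h in the knockout, 56 of the 65 genes rose and none fell, against 26.3% and 32.6% of all genes tested. Without the G and T run group, 53 of 56 rose, and Gp1bb, Vnn1 and H2-Aa did not pass. The median step was 2.28 over the 65 genes. Applied to the knockout arrays, the limits that chose the genes picked 73 genes, and 25 were common to both lists, which is 38.5% of the wildtype list and 34.2% of the knockout list. None of these 25 had a G and T run. Without knockout replicate 1 the limits picked 114 genes with 31 in common, and without replicate 2 they picked 87 with 21 in common.

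**Figure D4:**
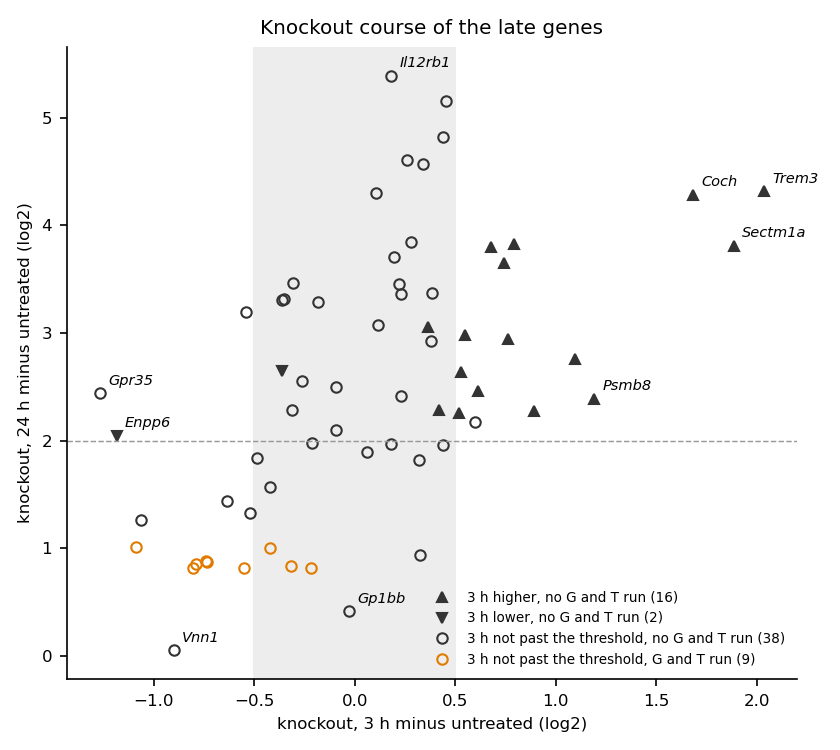
Change from untreated in the knockout at 24 h (vertical axis) against 3 h (horizontal axis), both log2, 1 point per gene, with filled triangles for the 16 genes higher and 2 genes lower at 3 h, grey shading for changes within 0.5 and a dashed line at 2. Most genes lie above the line inside or near the shading, Trem3, Sectm1a and Coch lie far to the right, and the 9 genes with a G and T run (orange) lie low and to the left.

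Genotypes were compared as description only, since the wildtype arrays chose the genes. The spike-in slope was also higher in the knockout arrays of every slide, and its part in the differences below was not tested. Untreated, both knockout samples lay above both wildtype samples for 36 of the 65 genes (27 of 56 without the G and T run group), against 32.9% of all genes tested, and below for 13 (25.8%). At 3 h they lay above for 40 (31 of 56 without that group), against 33.4% of all genes tested, and below for 8 (26.0%). At 24 h they lay above for 42 (33 of 56 without it), against 27.4%, and below for 4 (26.5%). The 4 lower ones at 24 h were Cd300e, Rims3, Cttn and Ptprm. The 3 h change had one sign in both wildtype mice and the other in both knockout mice for 9 genes, against 4.37% of all genes tested. The choice asked for a wildtype 24 h change of at least 2, which by itself favours smaller changes in the knockout. No share over all genes is given for the counts that follow, and they were not tested. The 24 h change of the knockout differed from that of the wildtype by at most 0.5 in 31 genes, was smaller by at least 1 in 13 genes, 9 of them with a G and T run, and larger by at least 1 in 7: Coch, Pappa2, Sct, Trem3, Fanca, Sectm1a and Adra1a. Of these 7, Pappa2, Trem3, Fanca, Sectm1a and Adra1a had a lower untreated mean in the knockout (Pappa2 and Trem3 not well above background there), and Coch and Sct a higher 24 h mean, by 1.62 and 1.22.

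Other probes gave a check of the late course within the wildtype arrays. Of 21 further probes of genes without a G and T run, 17 of 16 genes were above background on both 24 h arrays, a filter that favours probes that are high there. The 24 h change was at least 1 for 16 of the 17 and at least 2 for 13, and 9 met the limits at both times. Over all 21 probes it was at least 1 for 17 and at least 2 for 13, and the 4 left out by the filter were at 0.87 for Ccdc146, 1.14 for Pappa2 and 0.55 and -0.07 for Gp1bb. Il12rb1, for example, had 3.74 at 24 h and 0.10 at 3 h on its second probe. Probes of Tmcc3, Bst1, Acp2, Aoah and H2-Q10 lay outside the 3 h limits.

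**Figure D5:**
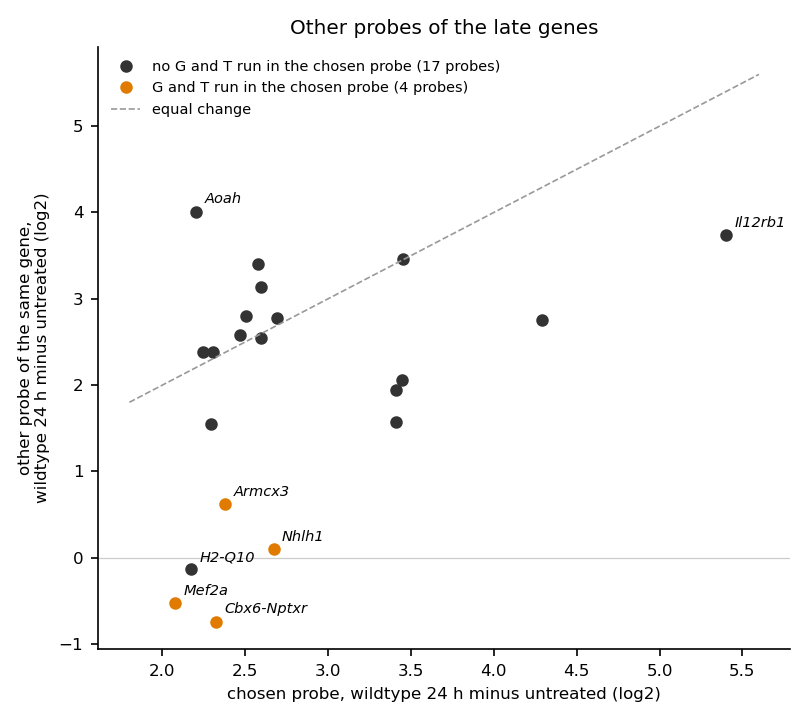
Wildtype change from untreated to 24 h (log2) of a further probe of the gene (vertical axis) against the probe that chose the gene (horizontal axis), for probes above background on both wildtype 24 h arrays. The 17 probes of genes without a G and T run lie between 1.55 and 4.01 apart from H2-Q10 at -0.14, and the 4 probes of genes with a run lie between -0.74 and 0.62.

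Several late genes are neighbours in the genome. By the probe positions of the files (mm9), 10 of the 65 genes (15.4%) lie on chromosome 17, which holds 4.9996% of the genes tested. Among them are Psmb8, H2-Aa, C2, Aif1, Lst1, H2-Q10 and H2-M11 of the MHC region. Pairs with probes within 500 kb were also found outside it: Trem3 and Treml2, Ms4a8a with Ms4a1 and Ms4a6b on chromosome 19, Sirpb1a and Sirpb1b, Cd300a and Cd300e (148 kb apart on chromosome 11), Sct and Drd4, and Rtn4r and Gp1bb (469 kb apart on chromosome 16). Most of these pairs are members of the same gene family. Cd300a is read by a probe with a G and T run, and Gp1bb was high at 24 h in a single wildtype mouse (0.16 and -4.41).

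Promoter sequences of RefSeq (GRCm38.p6) were matched for 45 of the 65 genes, and the 250 bases before the start were searched on both strands. The interferon-stimulated response element core (GAAA repeated after any 2 bases), bound by interferon regulatory factors, was found for 4 of the 45 genes (8.89%) and in 3.46% of 27025 genes in the table. The gamma-activated site TTCNNNGAA, bound by STAT factors, was found for 7 (15.6%) and in 8.13% of genes, and the 2 motifs do not share bases in the windows shown. The NF-kB motif (GGG, any 2 bases, TTTCC) was found for 1 (2.22%, against 1.65%), the C/EBP motif TTGCNNAA for 5 (11.1%, against 10.8%) and the AP-1 motif TGANTCA for 4 (8.89%, against 7.82%). These are matches of letters, and none of the shares was tested. Windows of 100 bases are shown for 6 genes that hold them, with both interferon-related motifs in capitals.
Sirpb1a: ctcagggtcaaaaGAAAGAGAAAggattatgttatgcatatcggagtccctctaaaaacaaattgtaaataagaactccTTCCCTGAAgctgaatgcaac
Sirpb1b: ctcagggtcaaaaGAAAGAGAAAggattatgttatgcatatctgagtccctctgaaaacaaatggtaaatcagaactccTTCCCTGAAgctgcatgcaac
Oas1c: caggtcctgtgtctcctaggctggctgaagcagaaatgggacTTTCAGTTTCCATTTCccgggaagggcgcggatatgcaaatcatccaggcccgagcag
Aif1: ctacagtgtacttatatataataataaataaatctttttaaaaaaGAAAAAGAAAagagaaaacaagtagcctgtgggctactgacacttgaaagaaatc
Gpr55: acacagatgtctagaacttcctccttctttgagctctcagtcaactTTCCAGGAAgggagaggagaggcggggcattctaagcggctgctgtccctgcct
Psmb8: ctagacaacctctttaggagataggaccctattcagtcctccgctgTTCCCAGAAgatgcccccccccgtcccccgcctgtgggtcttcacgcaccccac

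On GRCm38.p6 the windows lie at chr3:15426568-15426667 (Sirpb1a), chr3:15575113-15575212 (Sirpb1b), chr5:120812571-120812670 (Oas1c), chr17:35176155-35176254 (Aif1) and chr1:85961076-85961175 (Gpr55), all on the minus strand, and at chr17:34198052-34198151 (Psmb8) on the plus strand. Sirpb1a and Sirpb1b hold both motifs at the same spacing, and 95.7% of 207 aligned promoter bases are identical, so the pair counts as related sequence rather than as separate examples. Oas1c holds 2 overlapping matches of the response element on the opposite strand.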

How the data were processed

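RNA of 12 samples was measured on single-colour Agilent arrays. Per the file headers, each deposited scanner file holds the processed intensity of every spot on a linear scale after Agilent's background correction, with probe positions on mouse build mm9. Agilent Feature Extraction 10.7.3.1 is named per the submitters' processing notes. A deposited table of log2 values, whose centring is not stated, was used as an alternative; between 99.5% and 100% of detected probes in it equalled the log2 processed intensity less a constant, within 0.01. Here outlier and control spots were left out, spots of a probe were averaged, log2 values were taken less the array's 75th percentile, and the brightest of 39429 probes stood for each gene name. The samples are cultures of 2 mice per genotype, and the main fit does not pair the samples of a mouse. Its p-values rest on the spread between the 2 arrays of a group, pooled over the 6 groups. That spread mixes differences between mice, cultures and arrays.

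Group means were fitted with limma 3.58.1 (R 4.3.3; lmFit and eBayes) on all 12 arrays, with Benjamini-Hochberg adjustment over all tested genes and a threshold of 0.05; errors are standard errors. The script was tested on simulated data. A gene below background on both arrays of a group gets a lower bound on its fold. The labels tie each mouse to its 3 samples; deviations of same-numbered samples correlated at 0.12 to 0.18 in wildtype and 0.12 to 0.35 in knockout, and the mouse was tried as a block. Other alternatives changed the background correction, scaling, source of values, dim-probe filter, probe choice, samples in the fit and replicates. Precision is limited by how few arrays there are.

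Members and lists were chosen with earlier results of these data known. Genes were named by the size of their changes (the largest wildtype and the largest and smallest knockout changes, and differences between them), by list, by role and by closeness to a limit. Roles were assigned by hand. The sequence of 1 of the 9 probes with a G and T run is not reported here.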

Additional observations from a re-analysis of the deposited data

Results flagged for a closer look

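Replicates were too few in every group for a test of single outlying samples. For 9 of the late genes, the 3 h change went one way in both wildtype mice and the other way in both knockout mice. Such a pattern was seen in 4.37% of all genes tested. None of these differences was tested, and the wildtype means were held within 0.5 by the choice of genes. The mean 3 h change was 0.28 in knockout and -0.25 in wildtype for Sct, 0.23 and -0.15 for Cd72, 0.20 and -0.28 for Fanca, and 0.39 and -0.21 for Adra1a. Ptprm, which was not well above background on these arrays, had 1.09 and -0.44. The opposite pattern was seen for Lst1 with -0.092 in knockout and 0.17 in wildtype, and for 3 genes read by probes with a run of G and T: Elavl4 with -0.42 and 0.40, Fryl with -0.22 and 0.34, and Mef2a with -0.32 and 0.38.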

How the results depend on the processing

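The number of late genes moved with the limits: 130 with a 24 h change of at least 1.5, 15 with at least 3, 37 with a 3 h window of 0.3 and 126 with a window of 1. Leaving out a wildtype replicate gave 89 or 93 genes, of which 47 or 48 were among the 65, and normexp background correction gave 48, of which 38 were. With both knockout replicates kept, the count of genes higher in the knockout at 24 h ranged from 36 to 57 over the alternatives. The 36 were out of 46 genes with signal on all arrays, and 5657 of all 17983 genes tested in that fit were higher. The number over all 23019 genes moved too: 5986 were higher in the main fit, 10324 with normexp and 4856 with only the knockout groups. Of the 65 genes, 52, 54 and 52 were higher in these fits, in the same order. At 3 h, 10 genes were higher when only probes above background on all arrays were kept, against 5416 of all genes in that fit. The 2 genes lower at 3 h became 1 under normexp, the deposited value table, the mean over probes, no filter on dim probes, only probes above background on all arrays, or only the knockout groups, 7 under quantile normalization, 6 with the percentile over detected probes, and 3 to 11 without a knockout replicate. Tmcc3 at 3 h turned to 0.13 with the mean over probes (adjusted p = 0.417); the cause was not tested. With the mouse as a replicate block, 57 genes were higher at 24 h, 18 at 3 h and 63 from 3 h to 24 h. Over all genes tested in that fit, 6137, 6264 and 6297 were higher. The slide as a block could not be fitted. Leaving out the 9 genes with a G and T run was added after seeing the data. With 2 mice per group, the spread is poorly known.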
